A study of Mus musculus with 61 samples.

Results

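D2 nuclei were set against D1 nuclei of the mouse nucleus accumbens after morphine re-exposure, the condition named MM. The 14 libraries labelled D2 MM and D1 MM, 7 of each, were taken by cell class and treatment from the 61 libraries of the study. D2 MM nuclei came from male mice with a Cre driver for the D2 dopamine receptor, and D1 MM nuclei from male mice with a driver for the D1 receptor. All mice also carried a Cre-dependent fusion of green fluorescent protein with the ribosomal protein L10a, which tags nuclei for sorting. In MM, morphine was injected over 15 days, 30 days of withdrawal in the home cage followed, and tissue was taken 1 h after a morphine challenge. The other treatments had saline in the repeated phase, the challenge or both: MS (8 D2 and 9 D1 libraries), SM (7 and 8) and SS (7 and 8), where the first letter is the repeated treatment. The labels list morphine doses without tying them to mice, and they do not say whether each library came from its own mouse, so that p-values measure the spread between libraries, which may be technical. Cell class and driver line are the same contrast in these mice and cannot be told apart.

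Nearly all neurons of the accumbens are GABAergic projection neurons of these classes. D1 neurons couple dopamine to cAMP production through Golf and release dynorphin and substance P, whereas D2 neurons lower cAMP through Gi, carry an adenosine receptor encoded by Adora2a and release enkephalin. Morphine acts on mu opioid receptors and raises dopamine in the accumbens, and D1 neurons are known for inducing Fos and other immediate early genes when dopamine rises.

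The 14 libraries held 11518606 to 24408219 counts on genes. Counts also fell on 1464 olfactory and vomeronasal receptor genes, genes with no known transcription in the striatum, and their density per kb served as a background level for each library. Spread over all gene spans, that density would account for 62.0 ± 14.9% of counts in D2 MM and 53.9 ± 9.75% in D1 MM (SD, n = 7 each, exact two-sided permutation p = 0.255, adjusted p = 0.51 over 4 measures). It was highest in D2 MM replicates 7 (85.2%) and 6 (75.7%) and lowest in D1 MM replicate 3 (39.7%). Counts on the mitochondrial genome made up 0.0172% in D2 and 0.0302% in D1 on average (exact permutation p = 0.0845, adjusted p = 0.338). Levels below are normalised CPM (counts scaled to library size), scaled by the trimmed mean of M values, and in bulk RNA fewer cells of a type and less RNA per cell cannot be told apart.

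Few genes differed between D2 and D1 nuclei, and most of them were receptor genes, their neighbours and peptide genes of these neurons. Of 38458 genes tested with edgeR's quasi-likelihood test, 21 passed a Benjamini-Hochberg adjusted p of 0.05, which is 0.0546% of them (by limma voom, 19). Of these, 7 were higher in D2 (0.0182%) and 14 were lower (0.0364%), and 2897 genes (7.53%) had an unadjusted p under 0.05. DESeq2 called 107 genes on the same libraries (0.278%; 24 higher, 0.0624%, and 83 lower, 0.216%), and all 21 were among them. In 19 of the 21 called genes the 7 D2 and 7 D1 values did not overlap, and the others include an identifier without a symbol (ENSMUSG00000118401.1). Over all genes tested, 86 had no overlap (0.224%).

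Drd2, the gene of the D2 receptor (ENSMUSG00000032259.8, chromosome 9, 49340627 to 49408177), had the largest difference of any gene tested. It ran from 294 to 1748 CPM with a median of 974 in D2 MM, against 71.0 to 124 CPM with a median of 80.2 in D1 MM. The log2 difference was 3.47 ± 0.35 (SE, edgeR adjusted p = 0.00029). The lowest D2 value, in replicate 7, still lay above the highest D1 value, and D2 values spread far more widely than D1 values. Per kb of gene span Drd2 stood at 34.1 times background in D2 and 3.25 times in D1.

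The other genes of D2 neurons leaned the same way but did not pass in edgeR. The gene lists used from here on were written with earlier results of these data known, so their shares are descriptions and no independent test. All 9 tested members of the D2 marker list had a positive log2, with a median of 0.52 against -0.01 over all genes. Only Drd2 was called by edgeR, and 8 of the 9 had an unadjusted p under 0.05, against 2.82% of all genes in that direction. Drd2 and the phosphatase gene Ptprm did not overlap between classes, with D2 above D1, as in 0.0832% of all genes. Adora2a, the gene of the adenosine receptor of D2 neurons, ran from 31.8 to 131 CPM with a median of 85.4 in D2 and from 24.4 to 46.6 CPM with a median of 32 in D1 (log2 1.33 ± 0.28, SE, edgeR adjusted p = 0.219). Its D2 values overlapped those of D1 in 2 libraries, replicates 6 and 7, which had the highest background. With 1 library left out, Adora2a was called in 1 of 14 fits, that without D2 MM replicate 7 (edgeR adjusted p = 0.0396). In the others its edgeR adjusted p reached up to 0.429. Penk, the enkephalin precursor gene, had 138 to 378 CPM with a median of 245 in D2 and 55.1 to 154 CPM with a median of 87.7 in D1 (log2 1.28 ± 0.29, SE, edgeR adjusted p = 0.254). Again 5 of 7 D2 values stood above all D1 values. Gpr6, a constitutively active receptor of D2 neurons, had a log2 of 1.16 ± 0.26 (SE, edgeR adjusted p = 0.256). On the same libraries DESeq2 called Adora2a, Penk and Gpr6 (DESeq2 adjusted p = 0.00156 for Adora2a and 0.00661 for Penk).

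Among called genes outside the marker lists, Ndnf, a secreted neurotrophic factor gene (ENSMUSG00000049001.5, chromosome 6, 65671590 to 65712326), was higher in D2. It ran from 25.3 to 39.6 CPM with a median of 29.8 in D2, against 15.1 to 23.3 CPM with a median of 19.1 in D1 (log2 0.69 ± 0.12, SE, edgeR adjusted p = 0.0318). The groups did not overlap, although the gene lay at only 1.74 times background in D2 and 1.16 times in D1. With 1 library left out, it stayed called in 5 of 14 fits, those without D2 MM replicate 5, 6 or 7 or D1 MM replicate 2 or 6. A830012C17Rik, chosen after its values were seen, had a log2 of 0.44 ± 0.07 (SE, edgeR adjusted p = 0.0172), and it was not called without D2 MM replicate 1 or 5 or D1 MM replicate 1, 4 or 6. It overlaps Penk by 499 bases on the opposite strand, out of a span from 4138321 to 4188703 on chromosome 4. The strand setting of the counting is not given in the sources used here. Reads in those 499 bases thus cannot be told from those of Penk, and how many of its counts fall there was not tested.

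The identifier ENSMUSG00000118401.1, also chosen after its values were seen, had 2.61 to 8.74 CPM with a median of 6.47 in D2 and 1.67 to 2.99 CPM with a median of 2.21 in D1 (log2 1.36 ± 0.23, SE, edgeR adjusted p = 0.0482). In 6 of 7 D2 libraries its value lay above all D1 values, and its call stayed without D2 MM replicate 6 or 7 but in no other fit with 1 library left out.

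**Figure D1:**
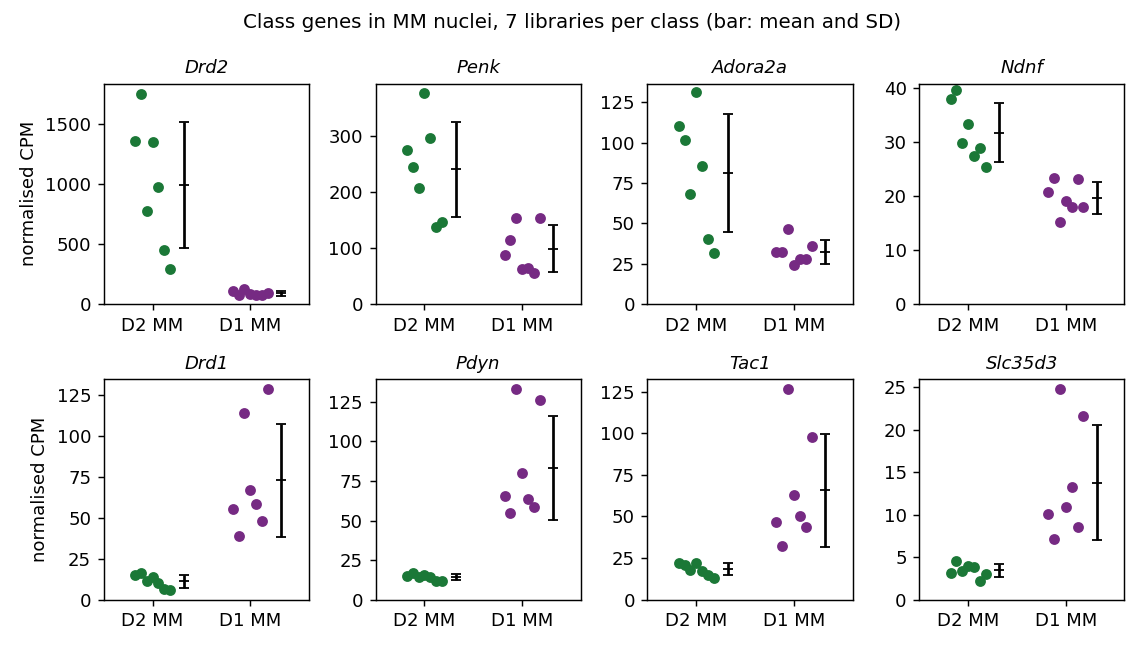
Normalised CPM (vertical axis, from 0) of 4 genes higher and 4 genes lower on average in D2 MM than in D1 MM nuclei; each point is a library, in replicate order from left to right, and the bar gives the mean and SD of 7 libraries. Drd2, Ndnf, Drd1, Pdyn, Tac1 and Slc35d3 do not overlap between classes, whereas the lowest Penk and Adora2a values of D2 lie within the D1 range.

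Most genes of D1 neurons were lower in D2 nuclei. Of 9 D1 markers tested, 6 were called lower in D2, against 0.0364% of all genes, and 8 had a negative log2. The list median was -1.83, against -0.01 over all genes. Drd1 itself and its neighbour Sfxn1 are among the called markers. Drd1, the D1 receptor gene (ENSMUSG00000021478.6, chromosome 13, 54051183 to 54055705), ran from 5.76 to 16.2 CPM with a median of 11.1 in D2 and from 38.9 to 128 CPM with a median of 58.1 in D1. Its log2 was -2.70 ± 0.31 (SE, edgeR adjusted p = 0.00133). The classes did not overlap, and per kb Drd1 stood at 5.66 times background in D2 and 40.7 times in D1. Pdyn, the dynorphin precursor gene (ENSMUSG00000027400.11, chromosome 2, 129686565 to 129699844), had 11.8 to 16.7 CPM with a median of 14.4 in D2 and 54.7 to 133 CPM with a median of 65.7 in D1. It fell in D2 by 2.55 ± 0.21 on the log2 scale (SE, edgeR adjusted p = 2.4e-05). D2 values of Pdyn were close together, while D1 values spread more than 2-fold.

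Tac1, which encodes the precursor of substance P (ENSMUSG00000061762.12, chromosome 6, 7554879 to 7565834), had 13.3 to 22.1 CPM with a median of 17.6 in D2 and 32.5 to 127 CPM with a median of 50.1 in D1. It fell by 1.85 ± 0.27 on the log2 scale (SE, edgeR adjusted p = 0.0175) without overlap, and it was not called without D2 MM replicate 2, 3, 5 or 6 (edgeR adjusted p 0.0523 to 0.0678). Slc35d3, a nucleotide sugar transporter family gene that in mice affects trafficking of the D1 receptor (ENSMUSG00000050473.5, chromosome 10, 19847916 to 19851459), ran from 2.22 to 4.52 CPM with a median of 3.32 in D2 and from 7.11 to 24.8 CPM with a median of 11 in D1 (log2 -2.0 ± 0.28, SE, edgeR adjusted p = 0.0109). Isl1, a LIM homeobox gene needed for D1 neurons to form in mice (ENSMUSG00000042258.13, chromosome 13, 116298281 to 116309689), had 7.59 to 9.12 CPM with a median of 8.32 in D2 and 10.4 to 19.4 CPM with a median of 12.6 in D1 (log2 -0.70 ± 0.12, SE, edgeR adjusted p = 0.0393). Both were separated between classes in all 14 libraries, but with 1 library left out Isl1 stayed called in 3 of 14 fits, those without D1 MM replicate 2, 4 or 7. Chrm4, the gene of the M4 muscarinic receptor, also did not overlap, with 3.10 to 13.2 CPM and a median of 7.94 in D2 against 13.8 to 53.3 CPM and a median of 23.0 in D1. It was not called by edgeR (log2 -1.80 ± 0.37, SE, edgeR adjusted p = 0.208), while DESeq2 called it lower in D2 (DESeq2 adjusted p = 0.000498). The remaining D1 markers Eya1 (0.07) and Ebf1 (-0.07) had log2 values near 0.

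The promoters of Tac1 and Isl1 are shown because both genes were called and, among called genes with a window, only these hold the core letters TGACG of the cAMP response element more than once. The windows run from 250 bases before to 50 after the RefSeq start on GRCm38.p6, read along the gene, and capitals mark TGACG on either strand. Tac1 lies at chr6:7554811-7555110 on the plus strand and Isl1 at chr13:116309639-116309938 on the minus strand.
Tac1: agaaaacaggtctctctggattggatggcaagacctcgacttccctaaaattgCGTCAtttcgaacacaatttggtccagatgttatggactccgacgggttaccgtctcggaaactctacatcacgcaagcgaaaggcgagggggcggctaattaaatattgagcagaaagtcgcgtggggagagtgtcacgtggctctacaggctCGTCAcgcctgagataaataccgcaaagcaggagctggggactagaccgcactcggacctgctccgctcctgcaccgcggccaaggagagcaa
Isl1: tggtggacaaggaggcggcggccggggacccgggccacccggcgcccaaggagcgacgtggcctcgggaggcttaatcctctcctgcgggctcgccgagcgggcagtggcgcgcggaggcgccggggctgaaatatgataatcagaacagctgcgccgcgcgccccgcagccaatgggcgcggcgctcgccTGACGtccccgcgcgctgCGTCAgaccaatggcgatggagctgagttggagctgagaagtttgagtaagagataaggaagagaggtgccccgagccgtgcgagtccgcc
Each window holds 2 matches. TGACG was in 20.8% of all 32851 RefSeq windows of this length, and 4 of the 12 called genes with a window had it (Tac1, Isl1, Slc35d3 and Ttc12), against 23% of all genes with a window. Of 36 named genes 21 were matched to RefSeq windows. A match is a description of letters and does not show that a factor binds there.

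Called genes lower in D2 that were no D1 markers were of several kinds. Sstr4, a somatostatin receptor gene (ENSMUSG00000037014.4, chromosome 2, 148395344 to 148396767), had 1.20 to 2.02 CPM with a median of 1.52 in D2 and 2.09 to 6.72 CPM with a median of 3.58 in D1 (log2 -1.46 ± 0.22, SE, edgeR adjusted p = 0.0121). Its D2 and D1 values did not overlap. The zinc finger gene Zfp575 (chromosome 7, 24583838 to 24587641) had a log2 of -0.58 ± 0.10 (SE, edgeR adjusted p = 0.0482), and with 1 library left out it stayed called in 1 of 14 fits, that without D2 MM replicate 1. Gm10493, a processed pseudogene of under 1 CPM in every D2 library that was chosen after its values were seen, had -2.04 ± 0.26 (SE, edgeR adjusted p = 0.00146). As a processed pseudogene can share reads with the gene it was copied from, its counts are uncertain.

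Genes beside both receptor genes differed with them: Drd2, Drd1 and their called neighbours made up 10 of the 21. Of 13 neighbours tested within 500 kb of Drd2, 3 rose in D2. Ttc12, whose protein is needed for the dynein arms of cilia (ENSMUSG00000040219.4, chromosome 9, 49436963 to 49486225), had the smallest p of all genes. It ran from 104 to 124 CPM with a median of 109 in D2 and from 25.4 to 37.8 CPM with a median of 34.1 in D1 (log2 1.77 ± 0.09, SE, edgeR adjusted p = 2.3e-08). The kinase gene Ankk1 (chromosome 9, 49415194 to 49427021) had 31.9 to 76.6 CPM with a median of 50.9 in D2 and 9.85 to 16.7 CPM with a median of 10.6 in D1 (log2 2.10 ± 0.20, SE, edgeR adjusted p = 0.00011). On the other side of Drd2, Gm4894 had 1.10 ± 0.12 (SE). None of the 3 overlapped between classes, and the other 10 neighbours had log2 values from -0.20 to 0.09.

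Within 500 kb of Drd1, 5 of 19 neighbours tested fell in D2. Sfxn1, a mitochondrial serine transporter gene that is also on the D1 marker list (ENSMUSG00000021474.9, chromosome 13, 54071869 to 54108342), had 25.5 to 33.4 CPM with a median of 29.7 in D2 and 82.4 to 136 CPM with a median of 99.5 in D1 (log2 -1.83 ± 0.12, SE, edgeR adjusted p = 1.9e-07). On the far side lay the noncoding genes Gm48550 (-1.10 ± 0.10, SE), Gm34557 (-1.38 ± 0.09, SE) and E130119H09Rik (-1.46 ± 0.14, SE) and the pseudogene Gm18974 (-1.17 ± 0.12, SE). None of the 5 overlapped between classes, and the other 14 neighbours had log2 values from -1.40 to 0.12. The stretch from the first to the last called gene spanned 220 kb around Drd1 (chromosome 13, 53888627 to 54108342) and 236 kb around Drd2 (chromosome 9, 49250531 to 49486225). Relative to background, the 5 called neighbours of Drd1 had 1.73 to 1.92 as their level per kb in D2, against 4.03 to 7.0 in D1. The 3 of Drd2 had 2.85 to 9.77 in D2, against 1.44 to 2.45 in D1. What the driver transgenes hold of these stretches is not given in the sources used here, and their part in these values was not tested.

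**Figure D2:**
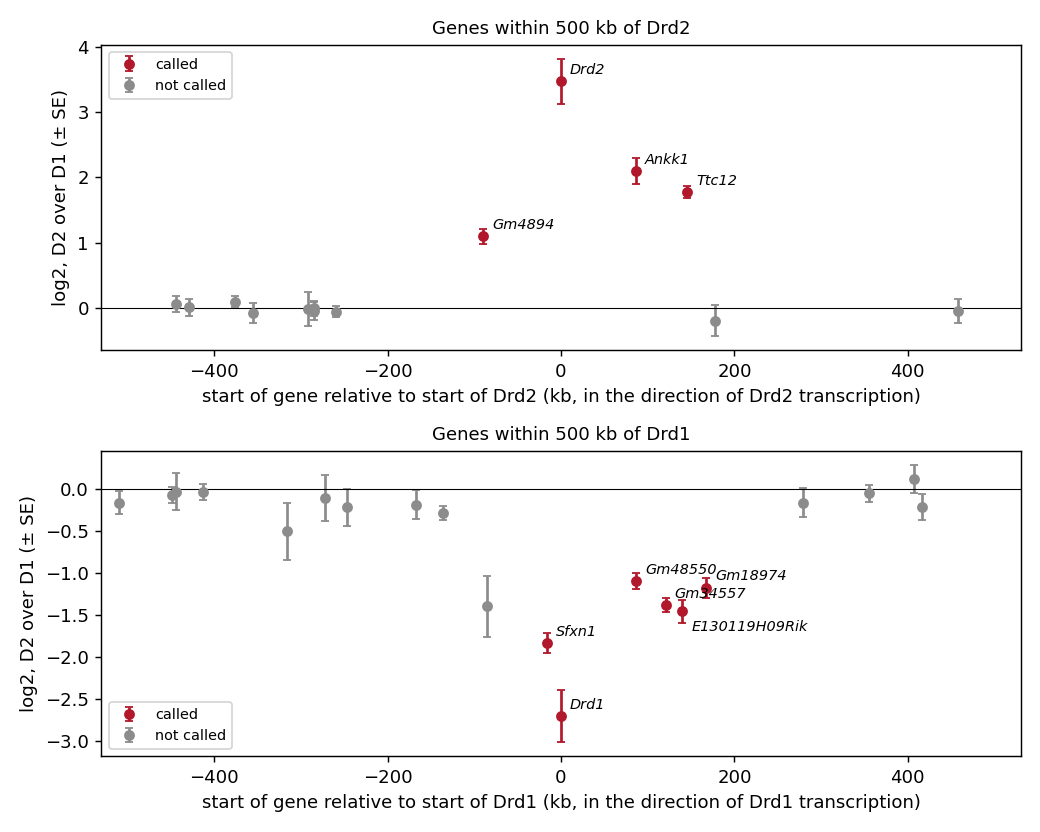
Log2 difference of D2 over D1 in MM with its SE (vertical axis) for genes within 500 kb of Drd2 (above) and Drd1 (below), by the distance of each gene's start from the receptor's start in kb. Called genes, in red, sit within about 170 kb of each receptor start; Gm18473, 85.2 kb from Drd1, has -1.40 with a wide SE and is not called, and genes farther out have values from -0.50 to 0.12.

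Among opioid genes, the call was confined to Pdyn, which was lower in D2. Of the 8 opioid receptor and peptide genes, 4 had a positive and 4 a negative log2, and the median was -0.06. Oprd1, the delta receptor gene, had 25.1 to 61.1 CPM with a median of 43.0 in D2 and 22.5 to 29.8 CPM with a median of 26.1 in D1 (log2 0.65 ± 0.17, SE, edgeR adjusted p = 0.407), with 5 of 7 D2 values above all of D1. Oprk1, the kappa receptor gene, had 14.0 to 26.4 CPM in D2 and 14.0 to 38.5 CPM in D1 (log2 -0.45 ± 0.21, SE, edgeR adjusted p = 0.67), with wide overlap. Oprm1, the mu receptor gene on which morphine acts, had 129 to 140 CPM with a median of 135 in D2 and 119 to 135 CPM with a median of 127 in D1 (log2 0.10 ± 0.06, SE, edgeR adjusted p = 0.697). It stood at 1.06 times background in D2 and 1.10 times in D1, so a difference in Oprm1 transcripts was not detectable at this background. Ipcef1 also overlaps Oprm1 on the opposite strand. The nociceptin receptor gene Oprl1 had -0.38 ± 0.16 (SE), Pomc -0.14 ± 0.13 (SE) and Pnoc 0.02 ± 0.12 (SE).

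Immediate early genes, which neurons transcribe within minutes of strong activity, stood lower in D2 than in D1 nuclei as a list, though none passed alone. Of 47 tested, 44 had a negative log2, with a median of -0.58, and 35 had an unadjusted p under 0.05 in that direction, against 4.71% of all genes. None was called by edgeR, while DESeq2 called 12 lower on the same libraries, against 0.216% of all genes. In 4 of the 47, Fosb, Btg2, Dusp5 and Gadd45g, all D2 values lay below all D1 values, against 0.14% of all genes. Those DESeq2 calls were Fos, Fosb, Fosl2, Junb, Arc, Npas4, Nr4a1, Nr4a3, Btg2, Dusp5, Gadd45g and Scg2, which encode transcription factors, regulators of growth and of MAP kinases, a synaptic protein and a granule protein.

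Arc, whose protein regulates glutamate receptors at synapses, had 5.54 to 9.86 CPM with a median of 6.34 in D2 and 8.58 to 65.5 CPM with a median of 17.7 in D1 (log2 -1.78 ± 0.40, SE, edgeR adjusted p = 0.256). Npas4, an activity-dependent transcription factor gene, had 8.15 to 15.6 CPM with a median of 11.8 in D2 and 12.1 to 76.4 CPM with a median of 32.5 in D1 (log2 -1.59 ± 0.35, SE, edgeR adjusted p = 0.244). In both, 4 of 7 D2 libraries lay below all D1 libraries, D2 values were close together and D1 values spread widely. Fosb had 5.64 to 7.66 CPM with a median of 6.17 in D2 and 7.68 to 15.4 CPM with a median of 10.8 in D1 (log2 -0.76 ± 0.14, SE, edgeR adjusted p = 0.0839). With 1 library left out, Fosb was called in 1 of 14 fits, that without D1 MM replicate 1 (edgeR adjusted p = 0.0297). In the others its edgeR adjusted p reached up to 0.275. Fos had 2.43 to 4.10 CPM with a median of 3.50 in D2 and 3.33 to 11.2 CPM with a median of 5.33 in D1 (log2 -0.90 ± 0.21, SE, edgeR adjusted p = 0.259). The nuclear receptor gene Nr4a1 had 21.1 to 37.5 CPM with a median of 27.9 in D2 and 25.7 to 156 CPM with a median of 59.5 in D1 (log2 -1.30 ± 0.32, SE, edgeR adjusted p = 0.352). For Fos and Nr4a1, 3 of 7 D2 values lay below every D1 value. The zinc finger gene Egr1 had 9.73 to 23.7 CPM in D2 and 15.2 to 92.7 CPM in D1 (log2 -1.17 ± 0.37, SE, edgeR adjusted p = 0.571), also with overlap.

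The highest D1 value of these genes came from D1 MM replicate 3, which had the lowest background. Summed over the 47 genes, the level ran from 554 to 877 CPM with a median of 726 in D2 MM and from 697 to 1832 CPM with a median of 921 in D1 MM. The 2 lowest D2 sums, 554 and 577 CPM, were those of replicates 7 and 6, which had the highest background. Without D1 MM replicate 3 the list median was -0.45, and without D1 MM replicate 2 edgeR called Fosl2, Nr4a3 and Btg2 lower. No other fit with 1 library left out called these genes. With the background density as a covariate the list median was -0.38. In that fit 4 of the early genes were called lower, again Fosb, Btg2, Dusp5 and Gadd45g, against 0.114% of all genes. In 5 against 5 libraries of middle background (without D2 MM replicates 6 and 7 and D1 MM replicates 3 and 7, an alternative chosen after seeing the data, with 0.0804% of genes called), the list median was -0.27 and no early gene was called. Adora2a, Penk and Oprd1 were called in those libraries.

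**Figure D3:**
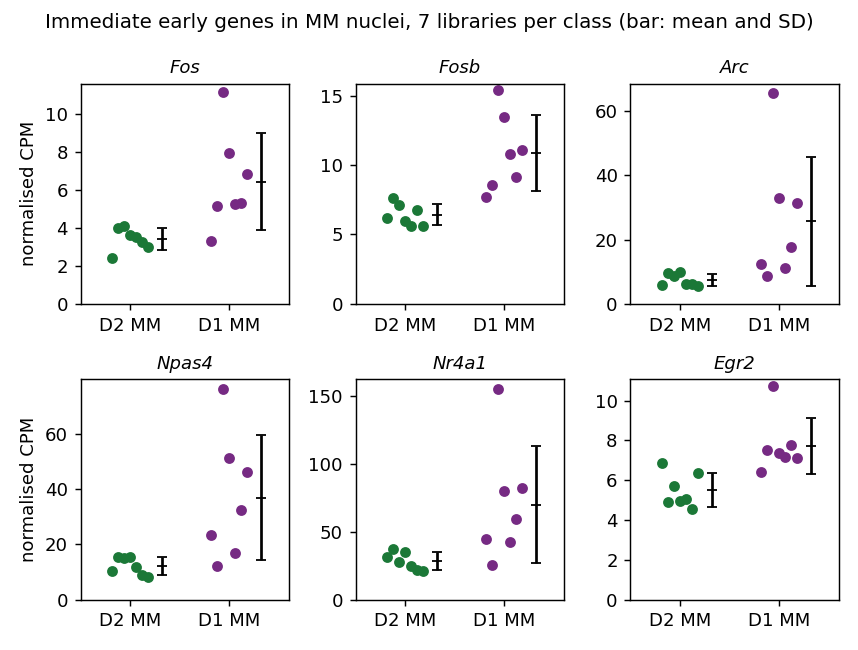
Normalised CPM (vertical axis, from 0) of 6 immediate early genes in D2 MM and D1 MM nuclei; each point is a library, in replicate order from left to right, and the bar gives the mean and SD of 7 libraries. D2 values lie close together at the low end, and D1 values spread upwards, with replicate 3 highest.

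The promoters of Fosb, Npas4 and Nr4a1 are shown as examples of early genes with negative log2 values that hold TGACG. It is the core of the element bound by the cAMP-responsive factor CREB, and these genes hold it 1, 2 and 4 times. Other early genes do so too, Fos and Egr2 among them, and are not printed. The capitals mark TGACG on either strand, in the same RefSeq windows of GRCm38.p6. Fosb lies at chr7:19309996-19310295 on the minus strand, Npas4 at chr19:4989922-4990221 on the minus strand and Nr4a1 at chr15:101266596-101266895 on the plus strand.
Fosb: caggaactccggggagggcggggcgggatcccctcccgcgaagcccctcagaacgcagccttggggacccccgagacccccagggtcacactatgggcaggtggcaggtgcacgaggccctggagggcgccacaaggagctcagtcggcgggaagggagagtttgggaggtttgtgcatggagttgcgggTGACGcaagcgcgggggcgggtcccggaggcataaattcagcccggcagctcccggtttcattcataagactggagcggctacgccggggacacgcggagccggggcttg
Npas4: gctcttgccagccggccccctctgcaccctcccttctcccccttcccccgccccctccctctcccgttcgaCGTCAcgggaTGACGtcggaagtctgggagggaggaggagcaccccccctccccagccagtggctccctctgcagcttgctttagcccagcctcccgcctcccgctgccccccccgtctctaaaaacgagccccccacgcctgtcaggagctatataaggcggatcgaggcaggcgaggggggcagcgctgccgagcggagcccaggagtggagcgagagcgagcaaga
Nr4a1: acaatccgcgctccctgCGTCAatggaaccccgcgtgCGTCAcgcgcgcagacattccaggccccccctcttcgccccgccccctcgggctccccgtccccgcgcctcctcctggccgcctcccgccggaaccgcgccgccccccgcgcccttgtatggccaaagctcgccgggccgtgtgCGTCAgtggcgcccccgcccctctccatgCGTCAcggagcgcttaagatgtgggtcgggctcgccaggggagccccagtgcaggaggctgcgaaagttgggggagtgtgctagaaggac
Of the 47 early genes 35 had a window, and 23 of these held the letters (65.7%), against 23% of all genes with a window. The share in the other lists ran from 0% for opioid genes to 64.3% for heat shock genes, so a high share was not particular to early genes. None of the Fosb, Npas4 and Nr4a1 windows holds the full element, TGACGTCA.

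Lists for other functions had medians nearer 0 than the early genes, though that of ribosomal proteins was close to theirs. All 35 cytosolic ribosomal protein genes had a negative log2 (median -0.51), as did 17 of 18 heat shock genes (-0.42) and 35 of 36 nuclear oxidative phosphorylation genes (-0.29), and none of the 3 lists had a member called. Of the 35 ribosomal protein genes, 27 had an unadjusted p under 0.05 in that direction. The same held for 35 of 47 early genes and 4.71% of all genes. The chaperone gene Hspa8 of the heat shock list had 38.7 to 75.6 CPM in D2 and 59.0 to 235 CPM in D1 (-0.92 ± 0.31, SE). In D1 the list medians of all 3 were highest in replicate 3. In the 5 against 5 libraries of middle background the medians were -0.08, 0.02 and 0.13, of which those of heat shock and oxidative phosphorylation have the other sign.

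Signalling lists lay nearer 0. The medians were -0.13 for 40 dopamine and cAMP signalling genes, -0.09 for 17 RGS genes, which speed up the shutdown of G proteins, and -0.05 for 44 other metabotropic receptors. They were -0.08 for 29 ionotropic glutamate receptor genes, -0.02 for 19 GABA genes, -0.16 for 49 potassium channels and -0.18 for 31 sodium and calcium channels. None of these lists had a member called by edgeR. Among receptors, the purine receptor gene P2ry1 had 4.45 to 10.3 CPM in D2 and 2.72 to 6.02 CPM in D1 (log2 0.87 ± 0.21, SE, edgeR adjusted p = 0.276). It was called higher with the background covariate (1.06 ± 0.14, SE, edgeR adjusted p = 0.00069), by DESeq2 (adjusted p = 0.0392), in the joint fit of 61 libraries and in the 5 against 5 libraries. The D3 dopamine receptor gene Drd3 had 52.3 to 73.0 CPM in D2 and 61.6 to 90.8 CPM in D1 (-0.41 ± 0.11, SE, edgeR adjusted p = 0.433). With the background covariate and in the 5 against 5 libraries, the median took a positive sign for the dopamine, metabotropic, glutamate, GABA, sodium and calcium channel lists and for the 100 genes of axon guidance and adhesion (here -0.05). Those of potassium channels and striatal transcription factors did so in the 5 against 5 libraries. Isl1 was the only one of 43 striatal transcription factors called (list median -0.11), and Tac1 the only one of 26 other neuropeptide and receptor genes (-0.12).

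Markers of other cells were mostly near background in both classes. At 2 or more times background stood 0 of 10 astrocyte, 0 of 10 endothelial and mural, 1 of 10 microglia, 1 of 10 cortical neuron, 2 of 14 oligodendrocyte and 2 of 14 interneuron markers. The summed astrocyte level ran from 259 to 287 CPM in D2 and 258 to 300.3 CPM in D1, that of microglia from 163 to 173 CPM in D2 and 165 to 191 CPM in D1, that of endothelial and mural cells from 338 to 403 CPM in D2 and 299 to 399.8 CPM in D1, and that of oligodendrocytes from 229 to 275 CPM in D2 and 273 to 345 CPM in D1. No marker of these cells was at 0 in all libraries. List medians were -0.06 for astrocytes, -0.05 for microglia, -0.01 for endothelial and mural cells, -0.12 for oligodendrocytes, -0.09 for cortical neurons and 0.04 for interneurons (negative with the covariate), and no member was called by edgeR. Single members stood apart. Sst, the somatostatin gene of a striatal interneuron type, had 2.61 to 8.44 CPM in D2 and 7.22 to 36.3 CPM in D1 (log2 -1.77 ± 0.37, SE, edgeR adjusted p = 0.219). The vesicular glutamate transporter gene Slc17a7 of cortical neurons had 8.53 to 11 CPM in D2 and 7.37 to 70.5 CPM in D1 (-1.53 ± 0.39, SE, edgeR adjusted p = 0.419). DESeq2 called both lower in D2 (adjusted p = 0.000584 for Sst and 0.0134 for Slc17a7). The D1 range of Slc17a7 took in all its D2 values, while the D1 range of Sst began at 7.22 CPM, below the highest D2 value of 8.44 CPM. The part of both genes in the other results was not tested.

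**Figure D4:**
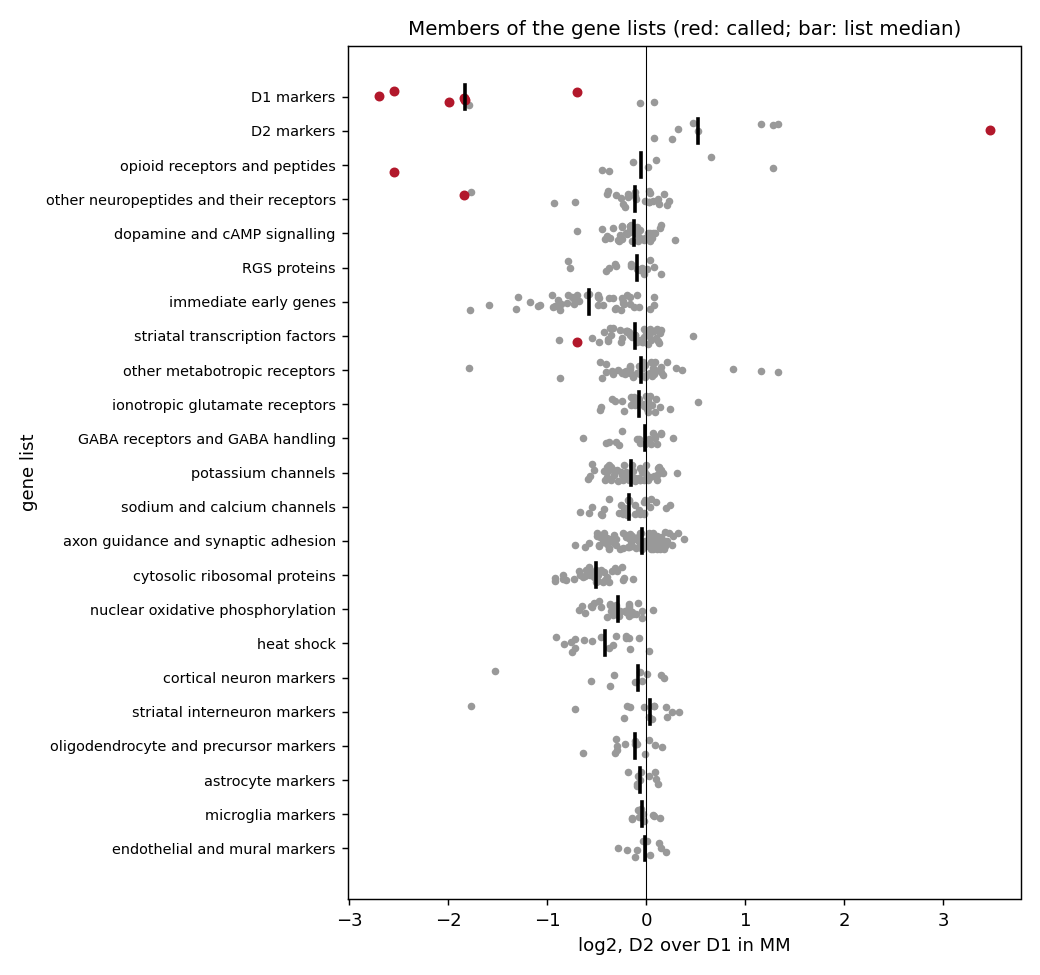
Log2 difference of D2 over D1 in MM (horizontal axis) for each tested member of 23 gene lists; red points are called, grey points are not, and the black bar is the list median. The D1 marker list lies far to the left at -1.83, the early gene, ribosomal protein and heat shock lists lie to the left of 0 at -0.58, -0.51 and -0.42, and most other lists straddle 0.

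Taking the background density into the edgeR fit as a covariate raised the calls to 92 (0.239% of genes), 48 higher (0.125%) and 44 lower (0.114%) in D2, with all 21 among them. The 71 added genes, 41 higher and 30 lower, included class genes named above. Chrm4 then had a log2 of -1.42 ± 0.15 (edgeR adjusted p = 0.000448), Adora2a 1.52 ± 0.19 (edgeR adjusted p = 0.00649), Gpr6 1.44 ± 0.17 (edgeR adjusted p = 0.00222) and Penk 1.54 ± 0.24 (SE, edgeR adjusted p = 0.0224). Without the covariate edgeR called none of the following. Gucy1a1 and Gucy1b1, which encode subunits of soluble guanylyl cyclase, the receptor of nitric oxide, were called higher in D2 with the covariate, at 0.74 ± 0.10 and 0.32 ± 0.05 (SE, edgeR adjusted p = 0.00432 and 0.00596). Without it they stood at 0.59 ± 0.20 and 0.13 ± 0.18 (SE, edgeR adjusted p = 0.596 and 0.858), and DESeq2 called neither. The ectonucleotidase gene Nt5e had 0.57 ± 0.09 with the covariate and 0.49 ± 0.12 without it (SE, edgeR adjusted p = 0.00432 and 0.305), and DESeq2 did not call it. The adenosine kinase gene Adk had 0.37 ± 0.07 with the covariate and 0.36 ± 0.08 without it (SE, edgeR adjusted p = 0.0183 and 0.244). The netrin receptor genes Unc5d (0.42 ± 0.07) and Unc5c (0.37 ± 0.07) and the transcription factor gene Sp9 (0.64 ± 0.12) were higher with the covariate too, and the proton-gated channel gene Asic4 (-0.56 ± 0.07) and the neurofilament gene Nefl (-0.91 ± 0.15, SE) were lower. DESeq2 also called Adk, Unc5d, Asic4 and Nefl, but neither Unc5c nor Sp9. These genes outside the naming rule were chosen after their values were seen. DESeq2 without the covariate shared 57 genes with this set, which is 62.0% of the 92 and 53.3% of its own 107.

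The other treatments, which share no library with MM, show where the same differences were also called. Lists of calls from separate fits do not test a difference between treatments, which the joint fit below does. In MS, edgeR called 29 of 38300 genes between D2 and D1 (0.0757%), in SM 15 of 38782 (0.0387%) and in SS 11 of 39939 (0.0275%). Of the 21 genes called in MM, 16 were called in MS (55.2% of its list), 13 in SM (86.7%) and 11 in SS (100%). The sign was that of MM in 20 of 21 genes in MS, where Zfp575 differed, and in 21 of 21 in SM and in SS. The 11 genes called in all 4 treatments were Drd2, Drd1, Pdyn, Slc35d3, Sfxn1, Ttc12, Ankk1 and 4 of the noncoding or pseudogene neighbours of Drd1. The D2 over D1 log2 of Drd2 was 3.47 ± 0.35 in MM, 4.23 ± 0.32 in MS, 2.97 ± 0.29 in SM and 2.60 ± 0.36 in SS (SE). That of Drd1 was -2.70 ± 0.31 in MM, -2.10 ± 0.30 in MS, -2.70 ± 0.28 in SM and -3.16 ± 0.44 in SS (SE). D1 SS replicate 1 stood apart with a background share of 7.46%, and without it SS had 17 calls, 15 of them among the 21.

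Called in MM and in no other treatment were 5 genes, among them Sstr4, Tac1, Zfp575 and Isl1, which by itself does not show a difference between treatments. Without D1 SS replicate 1, Tac1 was called in SS as well (-1.35 ± 0.17, SE, edgeR adjusted p = 0.00291), while Sstr4, Isl1 and Zfp575 were not. The difference itself, D2 minus D1 in MM less the mean of the same over MS, SM and SS, was tested in a joint edgeR fit of all 61 libraries. Of 42870 genes 0 passed (0%), 1116 had an unadjusted p under 0.05 (2.6%), and DESeq2 called none either. Tac1 had a log2 of -0.50 ± 0.35 and Zfp575 -0.42 ± 0.20 (SE), each with an edgeR adjusted p of 1.0. Drd2 at 0.19 ± 0.38, Drd1 at -0.06 ± 0.40 and Pdyn at -0.29 ± 0.32 (SE) lay within their error of 0.

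**Figure D5:**
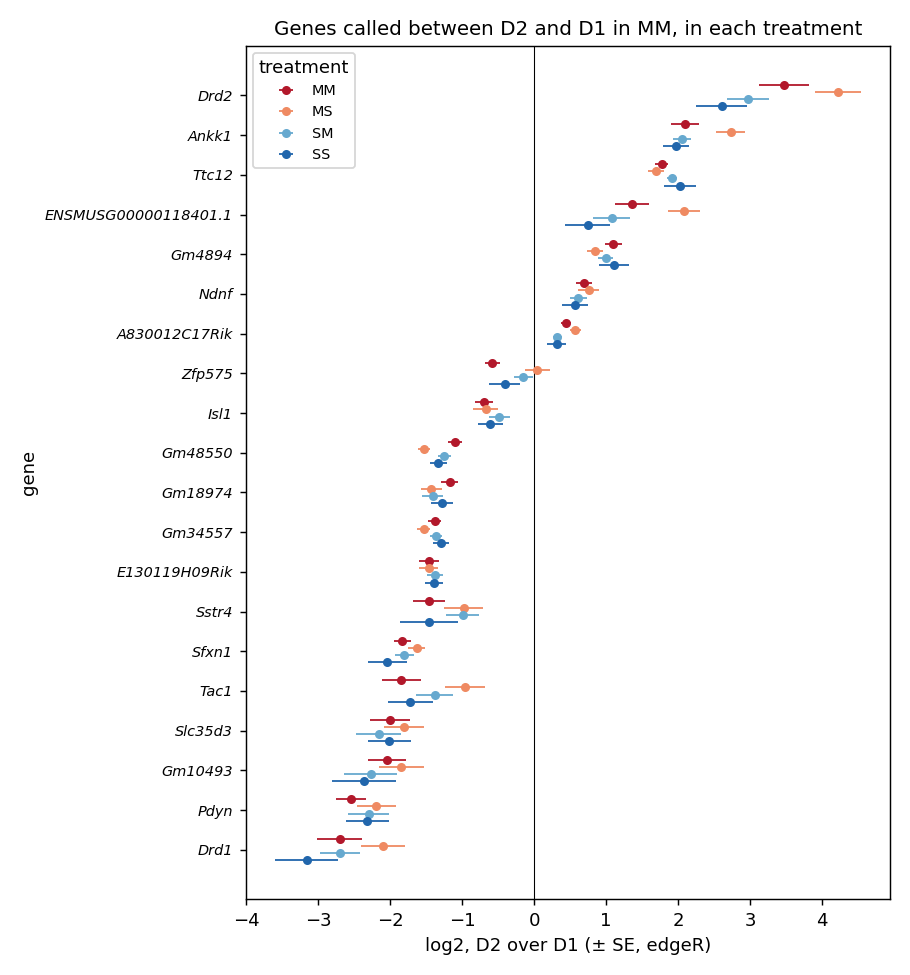
Log2 difference of D2 over D1 with its edgeR SE (horizontal axis) for 20 of the 21 genes called in MM, in MM, MS, SM and SS, each treatment fitted on its own libraries. Estimates fall on the same side of 0 in every treatment except for Zfp575 in MS, and the receptor genes and their neighbours are far from 0 in all 4.

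The 3 smallest p of that test, none of which passed, included an early gene. The smallest was that of Egr2, a zinc finger gene of this class, with a log2 of -0.60 ± 0.13 (unadjusted p = 2.9e-05, edgeR adjusted p = 1.0), followed by the ubiquitin ligase gene Fbxo2 (-0.52 ± 0.14) and the DNA repair gene Rdm1 (-0.59 ± 0.15, SE). Of the 47 early genes 42 had a more negative D2 minus D1 in MM than in the mean of the other treatments, with a median of -0.42 against -0.00 over all genes, and none was called. Other lists leaned the same way, with 35 of 35 cytosolic ribosomal protein genes negative (median -0.27), 15 of 18 heat shock genes (-0.22) and 13 of 14 oligodendrocyte markers (-0.17). The list median of D2 over D1 was -0.58 in MM, 0.11 in MS, -0.27 in SM and -0.44 in SS. Npas4 had -1.59 in MM, 0.67 in MS, -0.35 in SM and -0.74 in SS, and Arc had -1.78 in MM, 0.57 in MS, -0.45 in SM and -0.90 in SS. The SS values rested on 1 library: without D1 SS replicate 1 the list median in SS was -0.16, Npas4 had -0.30 ± 0.37 and Arc -0.16 ± 0.36 (SE). Without that library the difference between MM and the other treatments had a list median of -0.51, with 44 of 47 early genes negative, against -0.37 for the ribosomal and -0.31 for the heat shock list. With the background covariate, 3 genes passed (0.007%), all early genes that were more negative in MM: Dusp5 (-0.47 ± 0.08, edgeR adjusted p = 0.0149), Nr4a3 (-0.75 ± 0.14, edgeR adjusted p = 0.0394) and Fosl2 (-0.87 ± 0.17, SE, edgeR adjusted p = 0.0394).

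The levels themselves, on one scale over all 61 libraries, differed from gene to gene. Median Npas4 was 12 CPM in D2 MM, 22.5 in D2 MS, 11.2 in D2 SM and 11.2 in D2 SS. It was 33.5 CPM in D1 MM, 13.7 in D1 MS, 16.9 in D1 SM and 13.7 in D1 SS. Median Npas4 was thus highest in D1 MM, with D2 MS next. Every group overlapped the D1 MM range of 12.7 to 79.0 CPM. Single libraries reached 39.1 CPM in D2 MS and 64.3 CPM in D1 SS. Median Egr1 was higher in D2 MS (37.4 CPM) than in D1 MM (23.9 CPM). For Nr4a1 the medians were 50.3 CPM in D2 MS and 61.3 in D1 MM, and for Arc 16.7 and 18.3 CPM. Median Fosb was 6.24 CPM in D2 MM, 6.79 in D2 MS, 7.44 in D2 SM and 6.57 in D2 SS, against 11 in D1 MM, 7.32 in D1 MS, 7.42 in D1 SM and 6.96 in D1 SS. The summed early gene level had a median of 740.1 CPM in D2 MM, 916 in D2 MS, 708 in D2 SM and 655 in D2 SS, and of 949.8 CPM in D1 MM, 804 in D1 MS, 870.5 in D1 SM and 791 in D1 SS. The median share of background reads was 58.3% in D2 MM, 60.2% in D2 MS, 73.3% in D2 SM and 69.5% in D2 SS, and 55.6% in D1 MM, 65.8% in D1 MS, 59.6% in D1 SM and 62.2% in D1 SS. The group with the highest sum, D1 MM, thus also had the lowest share, and the part of background in these sums was not tested.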

How the data were processed

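Per the labels' protocols, nuclei of accumbens punches were sorted by fluorescence before stranded sequencing of total RNA from small inputs. The authors deposited a table of raw counts and one of FPKM values; per the submitters' processing notes reads were counted with featureCounts on mm10 and DESeq2 was used. The aligner, tool versions and strand setting were not stated in any source used. The deposited FPKM values served only to recover gene lengths, which equalled the whole gene span of GENCODE M21 for 54281 of 54281 identifiers, so intron reads of these nuclei count. Coordinates are from that release on mm10.

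Counts were fitted with edgeR 4.0.16 in R 4.3.3 (TMM scaling, filterByExpr, robust quasi-likelihood, two-sided), with an adjusted p under 0.05 as a call. DESeq2 1.42.0 and limma 3.58.1 were alternatives. List medians are of edgeR log2 values. The members, the 23 lists, of which 628 of 630 entries were tested, and the tests were chosen with earlier results of these data known. Named genes are called genes with at least 1 log2 CPM on average, leaving out Gm, Rik, ribosomal and mitochondrial models and identifiers without a symbol, called list members, 16 genes taken whatever their p, the 3 smallest p of the treatment test and genes near the receptors. Other list members were named for the size of their values. Fits were tested on simulated data. No 2 libraries of a group agreed within sampling noise. Per library, 11518606 to 24408219 counts limit precision, and no symbol was found for 260 of 55401 identifiers. The marker Gpr52 was not analysed here, and 1 called gene is not reported here.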

Additional observations from a re-analysis of the deposited data

Results flagged for a closer look

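Among 122 sets of 7 libraries examined for a single library far from the others, 3 had a gap above Dixon's critical value. Chance gives about 1 in 20 such sets. Arc in D1 MM was highest in replicate 3 at 65.5 CPM, next to 32.9 CPM, a gap of 0.572 of the range. Egr2 in D1 MM was highest in the same library at 10.8 CPM, next to 7.76 CPM, a gap of 0.687 of the range. The median log2 CPM of cortical neuron markers in D1 MM was lowest in replicate 7 at 2.77, next to 3.29, a gap of 0.633 of the range.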

How the results depend on the processing

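In every alternative, all 21 called genes kept their sign. The number called in MM was 19 with DESeq2's size factors, 18 without the filter on low counts, 19 with limma voom, 24 in the joint fit and 15 to 23 with 1 library left out, but 107 with DESeq2, 92 with the background covariate and 12 with the replicate number as a block. An added alternative, chosen after seeing the data, compared 5 against 5 libraries of middle background and called 31 genes. The treatment test gave 0 calls except with the background covariate (3). In SS, 20 genes were called in the joint fit, 23 with DESeq2, 7 with the replicate block and 17 without D1 SS replicate 1 (11 in the separate fit). In SM, DESeq2 called 27 and the replicate block 36, against 15, and in MS DESeq2 called 53, against 29. The causes were not tested.

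Replicate numbers did not pair libraries: same-numbered D2 and D1 MM libraries had correlations from -0.60 to 0.53, and 0 of 7 correlated best with their own number. Under the block, Drd1 and Slc35d3 had adjusted p values of 0.051 and 0.0673.

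With any 1 library left out, 14 of the 21 stayed called. Tac1 was lost without D2 MM replicates 2, 3, 5 or 6 (adjusted p 0.0523 to 0.0678), and A830012C17Rik without D2 MM replicates 1 or 5 or D1 MM replicates 1, 4 or 6 (0.0558 to 0.0732). Ndnf stayed called in 5 of 14 such fits, Isl1 in 3, ENSMUSG00000118401.1 in 2 and Zfp575 in 1, with adjusted p values of at most 0.19. Fbxo2 was gained without D2 MM replicate 6 (0.036). Sstr4 was lost in the joint fit (0.0613) and in the 5 against 5 libraries (0.0531). Background reads limit genes near 1 times background, Oprm1 and Ndnf among them.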
